A study of Homo sapiens with 12 samples.

Results

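The 40 genes described here encode the protein-folding machinery of the endoplasmic reticulum (ER) and the sensors, transcription factors and degradation factors of the unfolded protein response. They were chosen by name from the 57500 genes counted by RNA sequencing in HepG2 cells, a human hepatocarcinoma line that secretes many plasma proteins. No measured value entered the rule of choice, but earlier results of these data were known when it was made. All 40 were found, and 39 of them had enough reads to be tested. DERL3, a member of the derlin family, had no more than 1 read in any library and was left out by the filter on low counts.

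The 12 libraries came from 3 groups of 4 replicates. They were wild-type control cells (WT), cells in which thiosulfate sulfurtransferase was silenced by a short hairpin RNA (shTST), and cells overexpressing the same enzyme (overTST). Thiosulfate sulfurtransferase (TST, rhodanese) is a mitochondrial enzyme that transfers sulfur from thiosulfate to cyanide, and the comparisons ask what its loss or gain does to the transcriptome. All 3 groups were kept for 24 h in ordinary culture medium with 0.4 mM glycine and shared the HepG2 background. Silencing used a purchased hairpin plasmid. Overexpression used a vector with a Myc-tagged, codon-optimized TST coding sequence behind the CMV promoter and a blasticidin resistance gene. Both were packaged into lentiviral particles with which the cells were transduced. An empty-vector or non-targeting control is not named for these libraries, so viral transduction and selection cannot be told apart from the change in TST. The series' design text calls the replicates independent. The sources used here do not say whether each engineered line was a clone or a pool, so the p-values measure the spread between replicates of 1 line per group.

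Proteins that enter the ER are folded by the Hsp70 HSPA5 (BiP) and the Hsp90 HSP90B1 (GRP94), by the lectin chaperones calnexin and calreticulin, and by protein disulfide isomerases that form and shuffle disulfide bonds. When unfolded proteins build up, the sensors IRE1 (ERN1), PERK (EIF2AK3) and ATF6 start the unfolded protein response: IRE1 splices the XBP1 transcript, PERK lowers translation, and cleaved ATF6 enters the nucleus. Their downstream factors raise the transcription of chaperones and of ER-associated degradation (ERAD), which sends misfolded proteins back to the cytosol for the proteasome. Hepatocytes rely on this system because they secrete protein at a high rate.

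ATF6 and spliced XBP1 act through short promoter elements, so the promoters of 6 members with a single annotated start are shown, 4 of them with the ER stress response element (ERSE) and 2 with its shorter form (ERSE-II). The sequences are RefSeq reference sequence for GRCh38.p14 and cover the 250 bases before the annotated start of transcription, at chr9:125241344-125241593 on the minus strand for HSPA5, chr12:103930160-103930409 on the plus strand for HSP90B1, chr19:12938359-12938608 on the plus strand for CALR, chr22:49918384-49918633 on the plus strand for CRELD2, chr22:21642052-21642301 on the plus strand for SDF2L1 and chr16:56931892-56932141 on the plus strand for HERPUD1. Capitals mark the matches on either strand to the ERSE, which is CCAAT and CCACG with 9 bases of any kind between them, or to ERSE-II, which is ATTGG and CCACG with 1 base between them, so that a match to the opposite strand reads as the reverse complement.

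HSPA5: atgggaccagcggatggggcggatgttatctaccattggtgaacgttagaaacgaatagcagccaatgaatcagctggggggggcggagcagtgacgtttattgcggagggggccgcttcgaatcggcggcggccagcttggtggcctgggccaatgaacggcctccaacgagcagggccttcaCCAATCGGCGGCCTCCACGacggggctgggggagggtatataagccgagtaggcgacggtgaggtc
HSP90B1: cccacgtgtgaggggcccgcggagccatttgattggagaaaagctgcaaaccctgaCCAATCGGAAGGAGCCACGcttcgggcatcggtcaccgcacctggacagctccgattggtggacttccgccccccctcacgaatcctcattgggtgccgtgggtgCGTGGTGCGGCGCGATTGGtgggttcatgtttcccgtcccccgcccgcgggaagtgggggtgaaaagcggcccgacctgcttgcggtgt
CALR: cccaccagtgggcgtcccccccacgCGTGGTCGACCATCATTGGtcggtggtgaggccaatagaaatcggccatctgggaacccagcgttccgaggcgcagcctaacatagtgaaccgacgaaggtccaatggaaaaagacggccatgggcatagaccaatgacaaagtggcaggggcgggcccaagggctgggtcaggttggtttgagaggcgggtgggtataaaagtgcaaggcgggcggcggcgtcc
CRELD2: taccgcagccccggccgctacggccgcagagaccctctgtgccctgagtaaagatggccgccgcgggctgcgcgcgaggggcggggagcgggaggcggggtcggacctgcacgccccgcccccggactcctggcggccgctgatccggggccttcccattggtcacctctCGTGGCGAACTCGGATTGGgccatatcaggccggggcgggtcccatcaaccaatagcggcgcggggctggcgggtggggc
SDF2L1: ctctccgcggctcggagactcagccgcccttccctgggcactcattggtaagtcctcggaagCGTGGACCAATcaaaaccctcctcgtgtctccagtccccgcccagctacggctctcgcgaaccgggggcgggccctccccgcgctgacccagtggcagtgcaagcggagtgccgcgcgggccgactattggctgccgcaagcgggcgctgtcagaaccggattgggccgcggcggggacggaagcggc
HERPUD1: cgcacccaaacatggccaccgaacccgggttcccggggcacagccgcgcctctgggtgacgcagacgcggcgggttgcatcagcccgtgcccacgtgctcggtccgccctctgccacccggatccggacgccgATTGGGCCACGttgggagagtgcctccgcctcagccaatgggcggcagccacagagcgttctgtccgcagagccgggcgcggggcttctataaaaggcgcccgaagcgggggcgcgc

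Among 27305 genes with such a promoter sequence, 25 (0.0916%) held the ERSE letters, and 8 of them were among the 37 members with a sequence (21.6%). These were HSPA5, HSP90B1, CRELD2, CALR, CANX, PDIA6, ERO1B and XBP1. ERSE-II was found in 18 genes (0.0659%), of which HYOU1, SDF2L1 and HERPUD1 were members. The 8-letter unfolded protein response element TGACGTGG (UPRE) was less specific, in 213 genes (0.78%), with HYOU1, DNAJC10 and TXNDC5 among the members, and the UPRE of HYOU1 overlapped 1 of its 2 ERSE-II matches. A match is a string of letters and does not show that a factor binds there. The members were chosen by name as genes of this response, so their larger share is a description and not a test. PDIA3, DERL1 and DERL3 had no sequence in the table used.

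**Figure D1:**
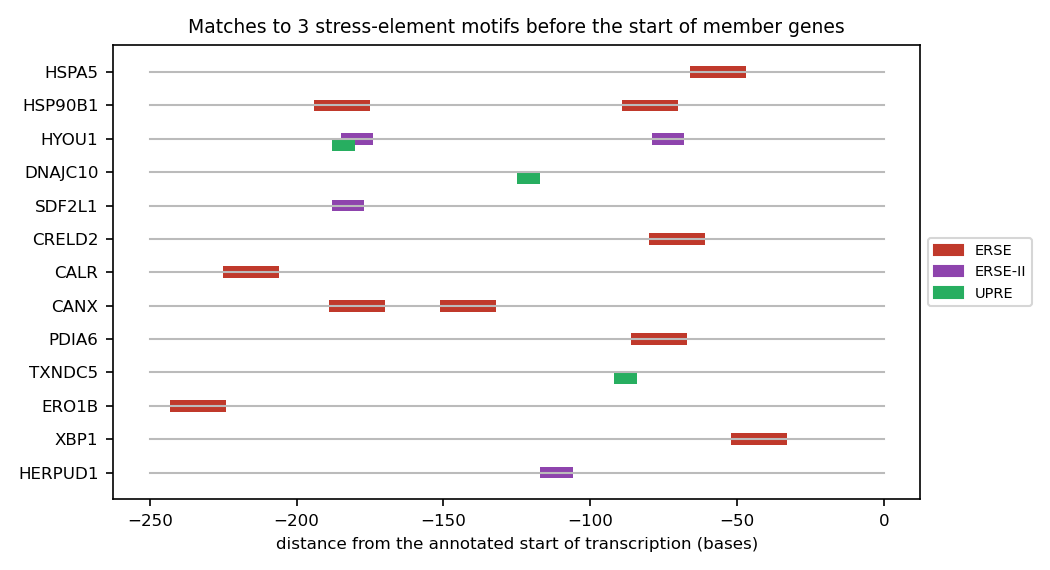
Positions of exact matches to 3 stress-element motifs (coloured bars) in the 250 bases before the annotated start of transcription (x axis, bases) of the 13 members that hold at least 1 match. HSP90B1 and HYOU1 hold more than 1 match, CANX is drawn with 1 match as seen from 2 annotated starts, and the matches lie from 243 to 34 bases before the start.

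Libraries held 22911380 to 45120508 counts, and the 40 members together took 1.01 to 1.12% of them in WT, 1.12 to 1.23% in shTST and 1.03 to 1.09% in overTST. Levels are given in CPM, a gene's counts relative to the library size after scaling, so shares of the RNA were compared, and fewer cells of a type and less RNA per cell cannot be told apart. The 10 hepatocyte and HepG2 markers checked were present in every library at a summed 21821 to 29019 CPM, against at most 25.2 CPM for 5 fibroblast markers, 3.91 CPM for 4 endothelial markers and 3.36 CPM for 4 leukocyte markers. Mitochondrially encoded genes took 6.91 to 11.98% of counts in WT, 6.84 to 8.65% in shTST and 10.8 to 11.7% in overTST.

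TST itself was read at 47.2, 47.5, 52.8 and 48.5 CPM in the 4 WT libraries, at 33.0, 33.6, 36.6 and 33.5 CPM in shTST and at 51.8, 56.0, 61.6 and 62.1 CPM in overTST. Every shTST library was below every WT library, whereas the lowest overTST library fell within the WT range. The log2 fold change was -0.52 (SE 0.055, adjusted p = 3.2e-06) with shTST and 0.24 (SE 0.062, adjusted p = 0.0038) with overTST. A codon-optimized transgene need not be counted as TST, so the overTST value does not measure the transgene. Corrected for the length trend described below, the overTST value was 0.083 (adjusted p = 0.277) and no longer passed the test. Apart from RNA, the paper reports western blots of TST in its overexpressing and silenced HepG2 cells. It also reports that added cyanide was broken down more with overexpression and less with silencing.

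In WT cells the members covered a wide range of expression. On a scale of CPM per kilobase of exonic length, CALR stood highest at 574 ± 20.01 (SD, n = 4), followed by P4HB, the classical protein disulfide isomerase, at 403 ± 11.8 and HSPA5 at 283 ± 10.2. Each of these 3 was separated from its neighbour in the order by more than their spread. XBP1 (149 ± 10.1) and CANX (144 ± 4.32) overlapped each other, as did the run of SEC61A1, HSP90B1, PDIA4, PDIA3 and PDIA6 from 131 to 104, each with the next. The sensors stood at the low end, with ATF6 at 4.61 ± 0.202, EIF2AK3 at 2.06 ± 0.369 and ERN1 at 0.836 ± 0.0809 CPM per kilobase. ERO1B, an ER oxidase best known from the pancreas, followed at 0.195 ± 0.0350 and its paralog ERO1A stood at 6.83 ± 0.238. The counting error was therefore far larger for the sensors than for the abundant chaperones and isomerases.

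With shTST, HSP90B1, HSPA5, CALR and 5 of 8 disulfide enzymes were higher, and most other members did not pass the test. Of the 39 members tested, 13 were called at an adjusted p of 0.05 or less (33.3%), against 16.1% of all 14584 genes tested. There were 9 higher calls, against 6.69% of all genes, and 4 lower calls, against 9.4%. All shTST libraries lay above all WT libraries for 7 members, against 8.37% of all genes, and below them for 3, against 10.8%, which makes 10 without overlap, against 19.1%. The median log2 fold change was 0.044 over the members and 0.0040 over all genes. By role, higher calls numbered 2 of 10 among the Hsp70 and Hsp90 chaperones and their partners, 1 of 2 lectin chaperones, 5 of 8 disulfide enzymes and 1 of 2 translocon subunits. Lower calls numbered 2 of the 10 ERAD factors tested, 1 disulfide enzyme and 1 translocon subunit. None of the 7 sensors and transcription factors was called by edgeR, limma-voom or DESeq2, although 3 of them (ERN1, ATF6B and XBP1) had an unadjusted p under 0.05. Under other settings 3 of the 7 passed. ATF6B did so under upper-quartile normalization (0.17, adjusted p = 0.0406), with GC correction (0.20, adjusted p = 0.0108) and without shTST replicate 1 (0.19, adjusted p = 0.0347). XBP1 did so with GC correction (-0.14, adjusted p = 0.0447), with length correction and the replicate block (-0.12, adjusted p = 0.0396) and without WT replicate 2 (-0.15, adjusted p = 0.0279), and CREB3L3 with GC correction (0.20, adjusted p = 0.0331).

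**Figure D2:**
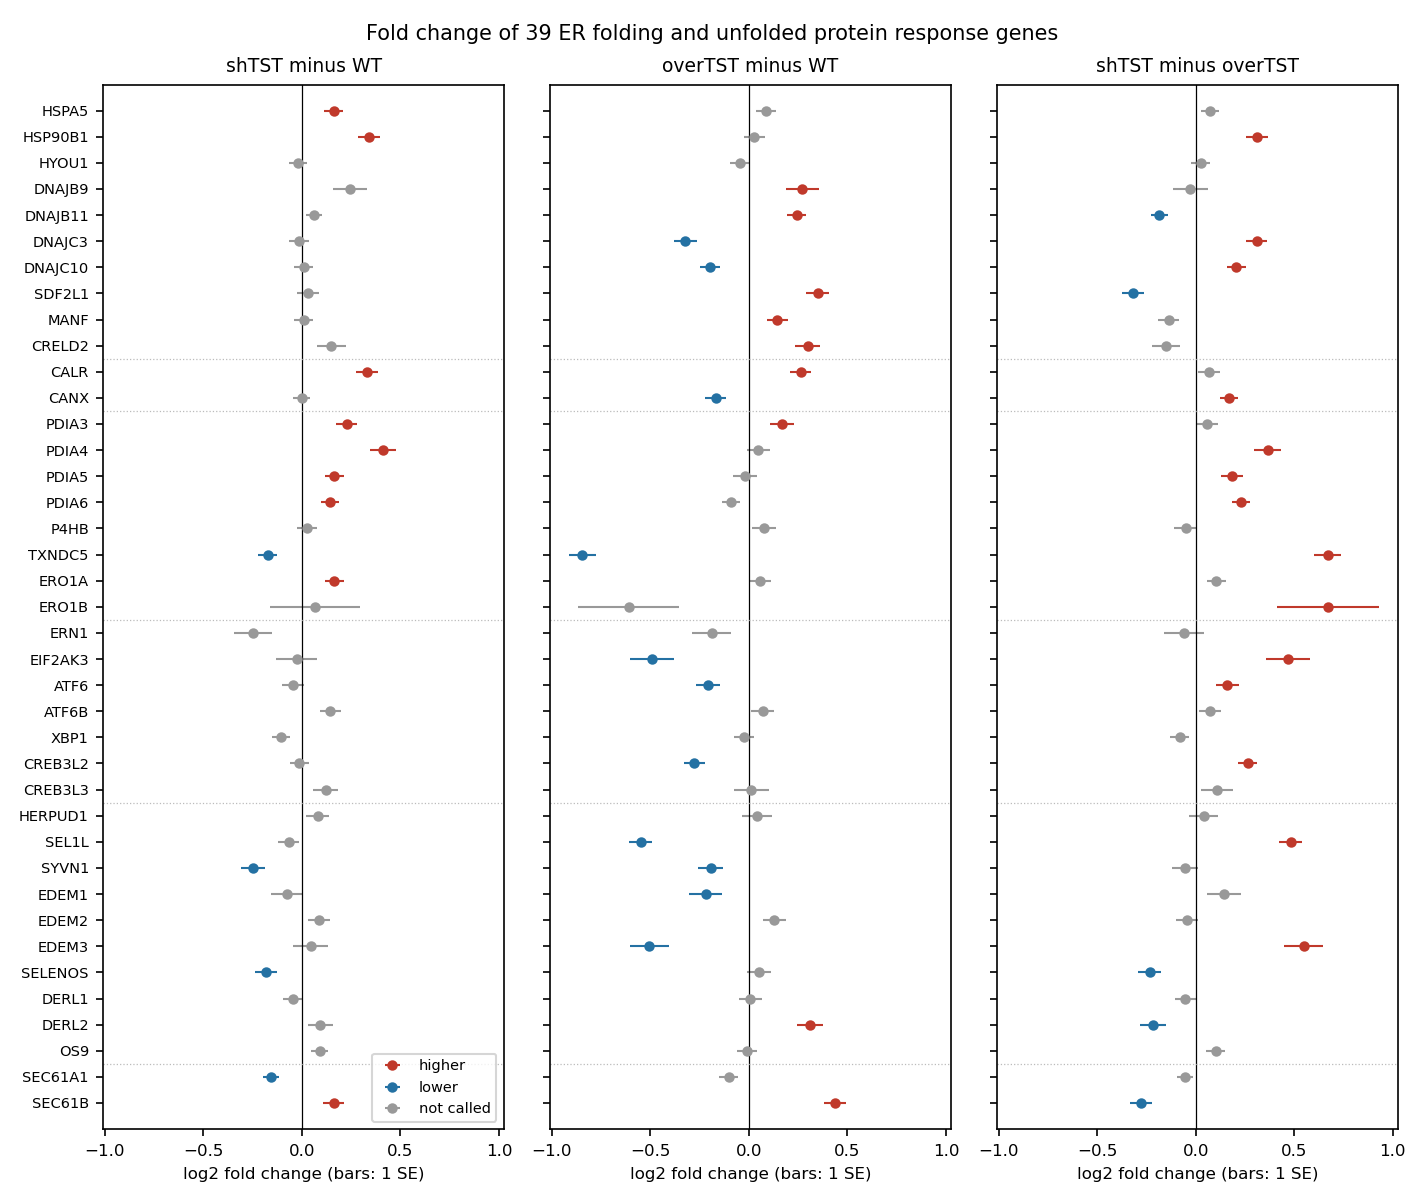
Log2 fold change of the 39 members tested (points) with 1 SE (bars) for shTST minus WT, overTST minus WT and shTST minus overTST, in the order of the roles, which dotted lines separate. Red and blue points passed an adjusted p of 0.05 (13, 20 and 19 members), and TXNDC5 with overTST has the lowest value.

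The chaperones came first. HSP90B1, the ER Hsp90 that matures integrins and Toll-like receptors, was at 633, 598, 607 and 581 CPM in WT and at 807, 668, 832 and 753 CPM in shTST. All shTST libraries lay above all WT libraries, with a log2 fold change of 0.34 (SE 0.056, adjusted p = 0.00036). HSPA5, the main ER Hsp70 and the repressor of the sensors in unstressed cells, was at 1106 ± 39.9 CPM in WT and 1236 ± 48.9 CPM in shTST, a log2 fold change of 0.16 (SE 0.047, adjusted p = 0.023). The other 8 chaperones and partners ranged from -0.02 for HYOU1, an Hsp110-like exchange factor for HSPA5, to 0.24 for DNAJB9, an HSPA5 co-chaperone (adjusted p = 0.061). DNAJB9 passed under upper-quartile normalization, with the replicate block and without WT replicate 2 or shTST replicate 4. CRELD2 gave 0.15 (adjusted p = 0.17) and passed only without shTST replicate 2 (adjusted p = 0.0203). DNAJB11, DNAJC3, DNAJC10, SDF2L1 and MANF all lay within 0.07 of 0 on the log2 scale, so the chaperones did not move as a block. Of the 10 in this role 8 had a positive value, against 7421 of all 14584 genes tested.

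Calreticulin and calnexin bind monoglucosylated glycoproteins and hold them for folding. CALR, the soluble of the pair, was at 1546, 1520, 1639 and 1531 CPM in WT and at 1976, 1785, 2150 and 1925 CPM in shTST. The groups did not overlap, and the log2 fold change was 0.33 (SE 0.055, adjusted p = 0.00036). CANX, the membrane-bound form, was at 896 ± 27 CPM in WT and 896 ± 9.61 CPM in shTST, with a difference of -0.0002 and a 95% interval of -0.09 to 0.09 on the log2 scale.

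Disulfide formation held the largest share of higher calls. PDIA4 (ERp72) was at 391, 372, 407 and 352 CPM in WT and at 521, 424, 562 and 516 CPM in shTST. Its log2 fold change of 0.41 (SE 0.064, adjusted p = 0.00019) was the highest of the members, and the groups did not overlap. PDIA3 (ERp57), which works with calreticulin and calnexin on glycoproteins, rose by 0.23 (SE 0.054, adjusted p = 0.0060). PDIA5, PDIA6 and the oxidase ERO1A, which passes electrons from the isomerases to oxygen, rose by 0.16, 0.14 and 0.16, with adjusted p-values of 0.027, 0.038 and 0.023. P4HB, by far the most abundant isomerase, gave 0.03 (95% interval -0.08 to 0.13). TXNDC5, an isomerase with 3 thioredoxin domains, went the other way, from 103, 100, 97.8 and 90.9 CPM in WT to 86.9, 81.9, 91.9 and 86.8 CPM in shTST, a log2 fold change of -0.17 (SE 0.049, adjusted p = 0.017) with 1 shTST library inside the WT range.

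Among the sensors and transcription factors, ATF6B and ERN1 had the smallest p-values. ERN1 was at 8.27, 9.49, 10.1 and 8.43 CPM in WT and 8.48, 6.60, 7.74 and 7.77 CPM in shTST, with overlapping groups and a log2 fold change of -0.25 (SE 0.096, adjusted p = 0.081). EIF2AK3 gave -0.03 (95% interval -0.23 to 0.18) and ATF6 -0.05 (-0.15 to 0.06). XBP1, whose spliced product drives ERAD and chaperone genes, gave -0.11 (adjusted p = 0.14). ATF6B, the ATF6 paralog, was at 46.7, 43.8, 44.2 and 42.3 CPM in WT. In shTST it was at 44.9, 49.0, 49.1 and 52.4 CPM, with overlapping groups and a log2 fold change of 0.14 (adjusted p = 0.073). Gene counts do not tell spliced from unspliced XBP1, nor cleaved from whole ATF6.

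SYVN1 (HRD1), the ubiquitin ligase at the centre of ERAD, was at 60.2, 71.6, 64.3 and 65.8 CPM in WT and at 50.6, 51.5, 59.8 and 58.4 CPM in shTST. Its groups did not overlap, and it fell by 0.25 on the log2 scale (SE 0.061, adjusted p = 0.0071). SELENOS, a selenoprotein that links the derlins to the p97 ATPase, fell by 0.18 (SE 0.057, adjusted p = 0.032). SEL1L, the partner that stabilizes SYVN1, gave -0.07 (adjusted p = 0.41), and HERPUD1, EDEM1, EDEM2, EDEM3, DERL1, DERL2 and OS9 did not pass either. The translocon, the channel through which new chains enter the ER, was split. SEC61A1, the pore subunit, was at 620, 625, 603 and 622 CPM in WT and 551, 570, 545 and 549 CPM in shTST, with no overlap and a log2 fold change of -0.16 (SE 0.042, adjusted p = 0.013). SEC61B, its small partner, was at 73.9, 69.1, 79.5 and 77.3 CPM in WT and 84.7, 77.5, 90.2 and 82.1 CPM in shTST, overlapping groups with a log2 fold change of 0.16 (SE 0.053, adjusted p = 0.042).

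The calls with shTST differed in how much they rested on single libraries. HSP90B1, CALR, PDIA4, PDIA3 and SYVN1 passed in every alternative and with any 1 library left out. The count of higher members was 4 without WT replicate 4 and 5 without shTST replicate 1, 3 or 4. That of lower members was 2 without WT replicate 1 or shTST replicate 2 and 1 without shTST replicate 4. Calls over all genes fell as well, from 16.1% to 11.8% without WT replicate 4 and 15.5% without WT replicate 1. They were 10.2, 14.2, 13.1 and 11.8% without shTST replicates 1, 2, 3 and 4. The other 8 calls were all lost without shTST replicate 4, with adjusted p-values from 0.0542 for TXNDC5 to 0.112 for SELENOS, and HSPA5, PDIA5, PDIA6, ERO1A, SEC61B, TXNDC5 and SELENOS were also lost without other libraries, at up to 0.142 (SEC61B without shTST replicate 3). Processing ended calls too: SEC61B with length correction (0.13, adjusted p = 0.0536), and PDIA6 and ERO1A with GC correction (adjusted p = 0.0554 and 0.0512). Of the 13 calls, 9 held with no filter and 11 with the overTST libraries in the fit. For all 9 members called higher, the shTST library nearest to WT was replicate 2, without which 10 members were higher.

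**Figure D3:**
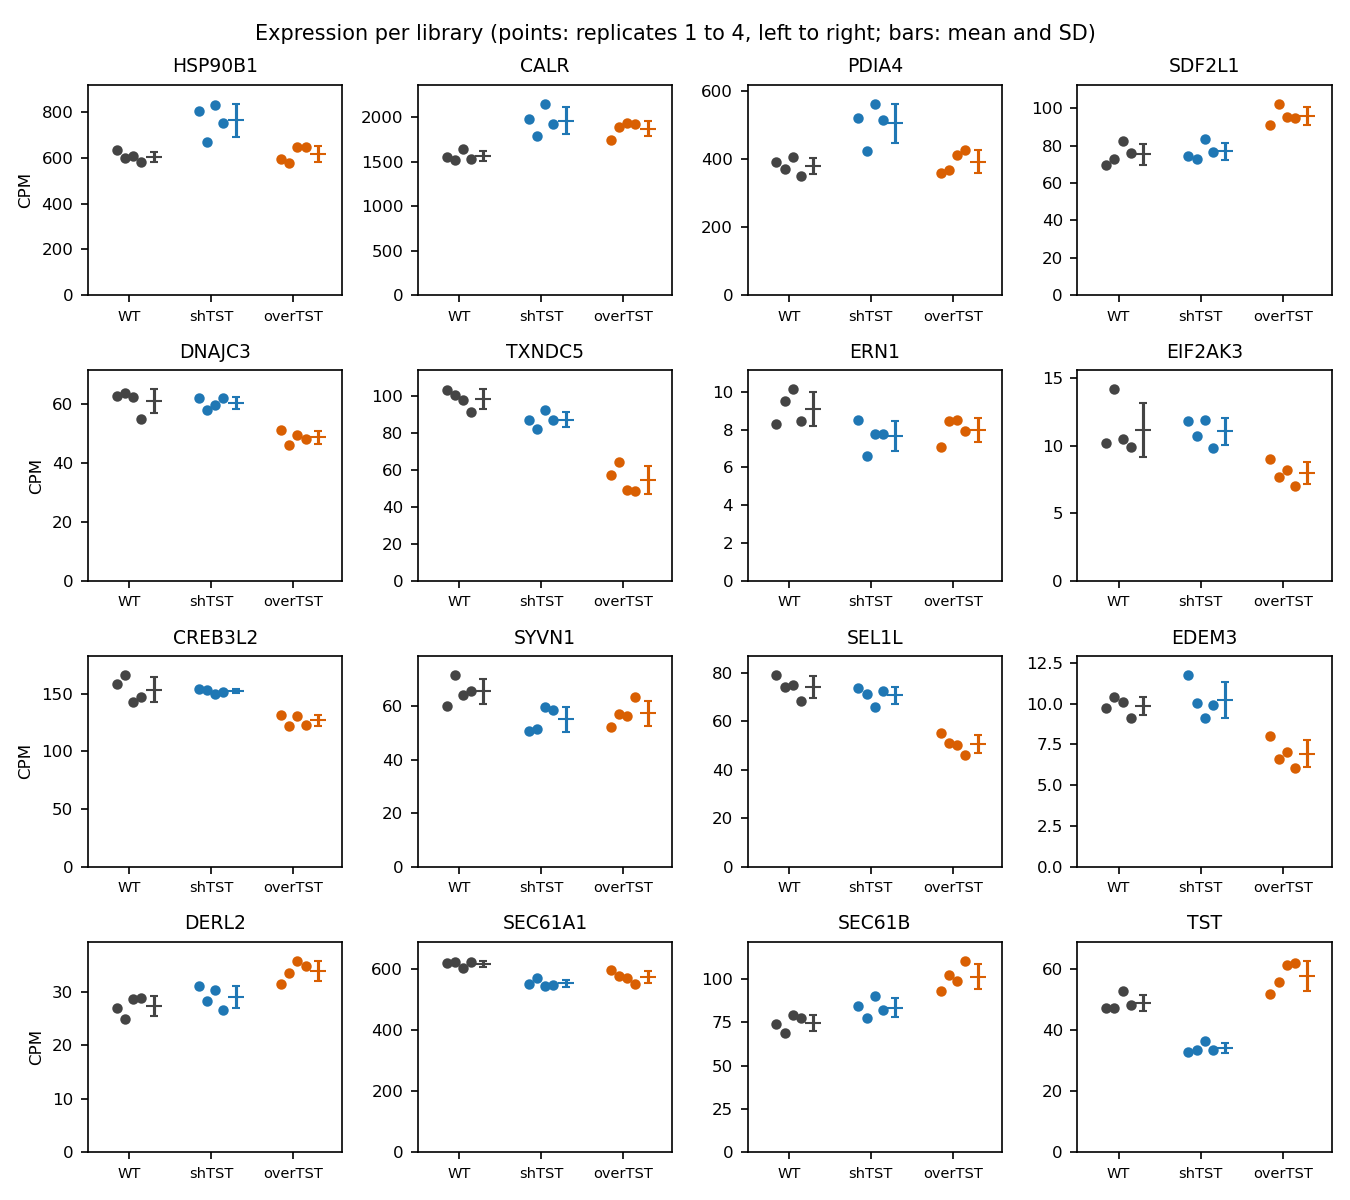
Expression in each library (points, CPM on the y axis from 0, replicates 1 to 4 from left to right) with the group mean and SD (bars) for 15 members and TST in WT, shTST and overTST. HSP90B1, CALR and PDIA4 stand higher in shTST, TXNDC5, SEL1L and EDEM3 lower in overTST, and SEC61B and SDF2L1 higher in overTST.

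With overTST, TXNDC5, SEL1L, EDEM3, EIF2AK3, DNAJC3 and CREB3L2 were lower, and SEC61B, SDF2L1, DERL2, CRELD2, CALR and DNAJB11 were higher, each of them also after length correction. Of the 39 members, 20 were called (51.3%), against 33.9% of all 14421 genes tested. Of these, 9 were higher, against 15.7% of all genes, and 11 were lower, against 18.2%. The groups did not overlap for 19 members, against 30.4% of all genes, with overTST above WT for 9, against 14.2%, and below it for 10, against 16.2%. The median log2 fold change was 0.0085 over the members and 0.0019 over all genes. By role, 5 of 10 chaperones and partners were higher and 2 lower, 1 of the 2 lectin chaperones went each way, and so did 1 of 8 disulfide enzymes. Of the 7 sensors and transcription factors 3 were lower, of the 10 ERAD factors 4 were lower and 1 higher, and of the 2 translocon subunits 1 was higher.

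These values sat on a trend with transcript length, which covers the whole transcriptome of this comparison. Over all genes tested, the Spearman correlation of the log2 fold change with exonic length was -0.404, against -0.0900 with shTST. Over the 39 members it was -0.593 with overTST, where all genes share the same 8 libraries, and -0.449 with shTST. The 9 members called higher with overTST had a median exonic length of 2837 bases (1099 to 6386), and the 11 called lower one of 6758 bases (4387 to 21826). With the trend removed by a smooth curve over all genes, 8 members were called higher, against 12.9% of all genes, and 6 lower, against 15.3%, or 14 in all, against 28.2%. Length-corrected values are given beside the calls that it moved by over 1.5 times or ended. The part of RNA quality or library preparation in the trend was not tested.

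SDF2L1, which keeps the ER Hsp40 proteins DNAJB9 and DNAJB11 soluble and active, was the chaperone partner with the smallest p. It was at 70.0, 72.7, 82.8 and 76.2 CPM in WT and at 91.0, 102.6, 95.4 and 94.96 CPM in overTST, without overlap. The log2 fold change was 0.35 (SE 0.056, adjusted p = 4.3e-05), and 0.16 (adjusted p = 0.015) after length correction. CRELD2, a secreted ER stress protein, and DNAJB11 rose by 0.30 and 0.24 (adjusted p-values of 0.00063 and 0.00039), and did not lose size with the correction (0.33 and 0.29). DNAJB9 gave 0.27 (adjusted p = 0.015) and MANF, a secreted neurotrophic factor that binds HSPA5, 0.15 (adjusted p = 0.041), and neither passed after the correction, at 0.18 (adjusted p = 0.119) and -0.0011 (adjusted p = 0.99).

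DNAJC3 (p58IPK), a co-chaperone that also restrains PERK, was at 63.0, 63.8, 62.5 and 55.2 CPM in WT and at 51.4, 46.2, 49.4 and 48.3 CPM in overTST. It fell by 0.32 on the log2 scale (SE 0.058, adjusted p = 0.00016), with no overlap between the groups. DNAJC10, a disulfide reductase of ERAD with the longest exonic length of the members, fell by 0.20 (adjusted p = 0.0035), and stood at 0.0087 after length correction. HSPA5 gave 0.09 (95% interval -0.01 to 0.18), HSP90B1 0.03 (-0.07 to 0.13) and HYOU1 -0.05 (-0.15 to 0.06). CALR was at 1742, 1887, 1929 and 1921 CPM in overTST, above every WT library, with a log2 fold change of 0.26 (SE 0.053, adjusted p = 0.00052), and 0.16 (adjusted p = 0.0138) after length correction. CANX fell by 0.17 (SE 0.052, adjusted p = 0.014), a call that did not hold after length correction (-0.11, adjusted p = 0.0903) or without WT replicate 1 or overTST replicate 4.

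TXNDC5 showed the largest change of any member tested with overTST. It was at 57.1, 64.1, 49.0 and 48.3 CPM in overTST, all far below the lowest WT value of 90.9 CPM. The log2 fold change was -0.84 (SE 0.070, adjusted p = 1.2e-08), and -0.85 after length correction. The annotation lists a readthrough gene, BLOC1S5-TXNDC5, that shares 60.6% of the exonic bases of TXNDC5, so reads that fall on both can be lost from either count. PDIA3 rose by 0.17 (SE 0.060, adjusted p = 0.031), and the other isomerases and oxidases did not pass, although ERO1A did after length correction (0.14, adjusted p = 0.0412). PDIA4, at 393 ± 33.6 CPM against 380 ± 23.8 CPM in WT, gave 0.05 (95% interval -0.07 to 0.16). ERO1B gave -0.61 at only 0.195 CPM per kilobase in WT, with a wide interval from -1.11 to -0.11 (adjusted p = 0.070).

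All 3 calls among the sensors and transcription factors were lower. EIF2AK3 (PERK) was at 10.2, 14.2, 10.5 and 9.94 CPM in WT and at 8.995, 7.71, 8.25 and 7.05 CPM in overTST, with no overlap. Its log2 fold change was -0.49 (SE 0.113, adjusted p = 0.0016), and -0.35 without WT replicate 2, the highest library, where it still passed. CREB3L2, an ER-anchored factor of the ATF6 kind that governs secretory capacity, was at 159, 166, 143 and 147 CPM in WT and at 132, 122, 131 and 123 CPM in overTST, a log2 fold change of -0.28 (SE 0.054, adjusted p = 0.00033), and -0.16 (adjusted p = 0.0108) after length correction. ATF6 fell by 0.21 (adjusted p = 0.011), and did not pass after length correction (-0.11, adjusted p = 0.146). ERN1 gave -0.19 (adjusted p = 0.15), XBP1 -0.02 (95% interval -0.13 to 0.08) and CREB3L3, a liver-enriched relative, 0.01 (-0.16 to 0.18).

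Within ERAD, SEL1L, SYVN1, EDEM1 and EDEM3 were called lower, while EDEM2 gave 0.13 (adjusted p = 0.093). SEL1L was at 79.0, 74.3, 74.9 and 68.2 CPM in WT and at 55.2, 50.9, 50.3 and 46.0 CPM in overTST. The groups lay well apart, and the log2 fold change was -0.55 (SE 0.060, adjusted p = 4.7e-07). EDEM3, a mannosidase that trims misfolded glycoproteins for degradation, was at 9.75, 10.4, 10.1 and 9.14 CPM in WT and 8.02, 6.61, 7.03 and 6.05 CPM in overTST, without overlap and with a log2 fold change of -0.50 (SE 0.100, adjusted p = 0.00040). After length correction they stood at -0.42 and -0.41, and both passed in every alternative. SYVN1 gave -0.19 (adjusted p = 0.018), from 52.3, 57.2, 56.3 and 63.5 CPM in overTST, where 1 library overlapped WT, and did not pass after length correction (-0.15, adjusted p = 0.0608). EDEM1 gave -0.22 (adjusted p = 0.049), a call lost in 9 of 12 alternatives, among them length correction (-0.15, adjusted p = 0.19).

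DERL2, a derlin of the ERAD channel, was the ERAD factor called higher. It was at 26.9, 24.9, 28.6 and 28.8 CPM in WT and at 31.4, 33.5, 35.7 and 34.7 CPM in overTST, without overlap, and rose by 0.31 (SE 0.067, adjusted p = 0.00083). Its exonic length of 6386 bases put it against the length trend. SEC61B, the translocon subunit, was at 93.3, 102.7, 99.2 and 110.6 CPM in overTST, above every WT library, with a log2 fold change of 0.44 (SE 0.058, adjusted p = 4.3e-06), and 0.25 after length correction. SEC61A1, at 598, 579, 573 and 551 CPM in overTST, lay below every WT library but did not pass (-0.10, adjusted p = 0.10).

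Most calls with overTST did not depend on 1 library. The exceptions were PDIA3, lost without WT replicate 2 or 4 or overTST replicate 3 or 4 (adjusted p of up to 0.148), DNAJB9, lost without WT replicate 1 or overTST replicate 2 (up to 0.0652), SYVN1, lost without WT replicate 2 or overTST replicate 1 or 3 (up to 0.0738), and CANX as given above. MANF and EDEM1 each lost their call without any of 6 of the 8 libraries, with adjusted p-values of up to 0.153 and 0.17.

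**Figure D4:**
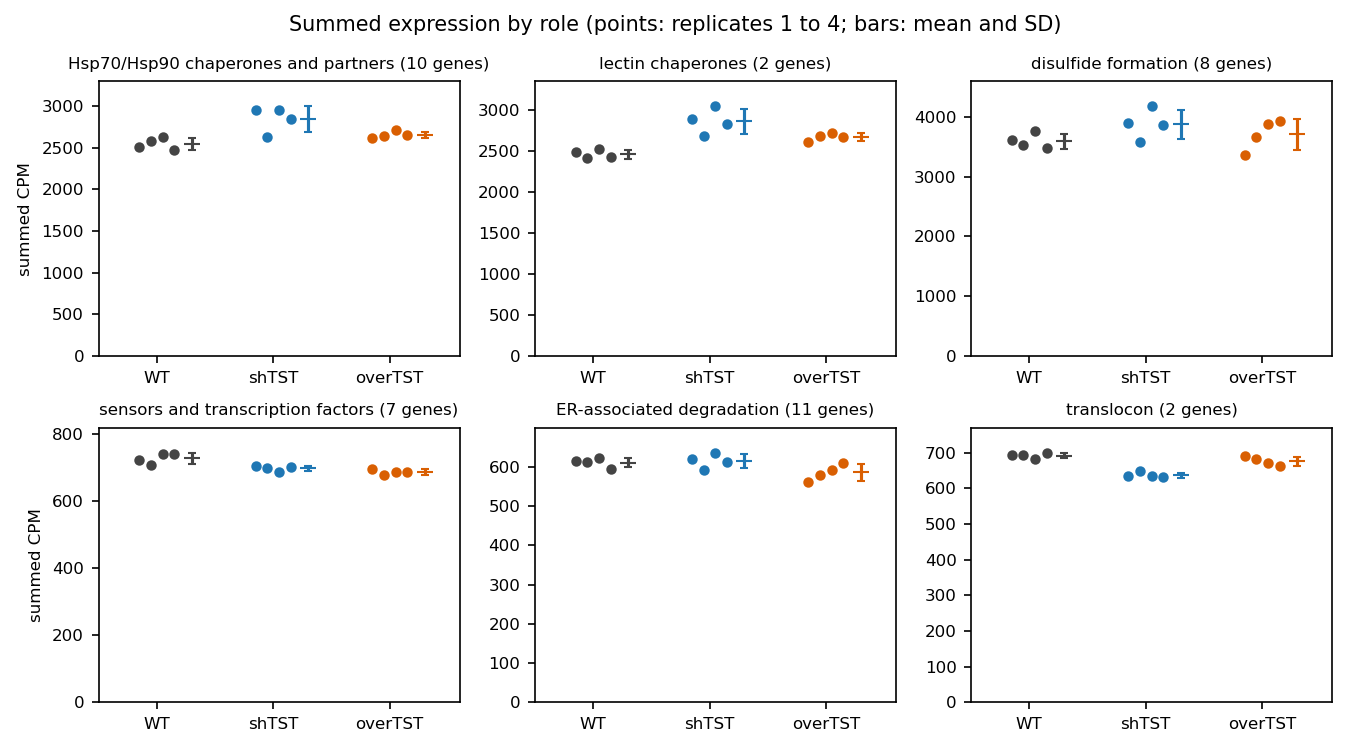
Summed CPM of the members of each of the 6 roles (y axis, from 0) in each library (points, replicates 1 to 4 from left to right), with the mean and SD (bars). Lectin chaperones reach 2675 to 3038 CPM in shTST against 2404 to 2516 CPM in WT, while sensors and transcription factors reach 689 to 705 CPM in shTST and 678 to 697 CPM in overTST against 708 to 741 CPM in WT.

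Summed by role, the lectin chaperones were at 2455 ± 52.8 CPM in WT, 2855 ± 150.3 CPM in shTST and 2667 ± 50.5 CPM in overTST, and neither engineered group overlapped WT. The Hsp70 and Hsp90 chaperones and partners were at 2545 ± 68.2 CPM in WT and 2843 ± 151.1 CPM in shTST, and at 2652 ± 40.9 CPM in overTST, where the lowest library lay within the WT range. Disulfide enzymes gave 3592 ± 127.5 CPM in WT, 3877 ± 245.5 CPM in shTST and 3708 ± 259.5 CPM in overTST, with overlap. Sensors and transcription factors were at 729 ± 15.98 CPM in WT, 699 ± 7.2 CPM in shTST and 688 ± 7.79 CPM in overTST, with both engineered groups below every WT library, and the translocon subunits lay below the WT range in shTST (638 ± 7.2 CPM against 692 ± 7.27 CPM). The sums are led by the most abundant genes of each role and were not tested.

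Set directly against each other, the 2 engineered groups differed in 19 of 39 members (48.7%), against 33.0% of all 14883 genes tested. In shTST 14 were higher, against 16.9% of all genes, and in overTST 5 were higher, against 16.1%. The libraries did not overlap for 17 members, against 29.2% of all genes, with shTST above overTST for 11, against 14.5%, and below it for 6, against 14.7%. HSP90B1 and PDIA4 were higher in shTST by 0.31 (SE 0.057, adjusted p = 0.00020) and 0.37 (SE 0.068, adjusted p = 0.00020). TXNDC5, SEL1L, EDEM3, EIF2AK3, DNAJC3 and CREB3L2 were higher in shTST by 0.67, 0.48, 0.55, 0.47, 0.31 and 0.26, with adjusted p-values from 1.4e-07 to 0.0022. Here the difference between silencing and overexpression was itself tested, in a fit of all 12 libraries.

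SDF2L1, SEC61B, SELENOS, DERL2 and DNAJB11 were the 5 members higher in overTST, with log2 differences of -0.32, -0.28, -0.23, -0.22 and -0.18 for shTST minus overTST. For CALR, which stood above WT in both engineered groups, the difference between them was 0.07 (95% interval -0.04 to 0.17), and for HSPA5 it was 0.07 (-0.02 to 0.16). The length trend had the opposite sign here, with a Spearman correlation of 0.357 over all genes and 0.32 over the members. With the trend removed, 12 members were called higher, against 13.8% of all genes, and 4 lower, against 14%, or 16 in all, against 27.8%: DNAJC10, ATF6, ERO1B and SEC61B no longer passed, whereas CALR did (0.15, adjusted p = 0.019), and SDF2L1 and CREB3L2 stood at -0.16 (adjusted p = 0.0104) and 0.17 (adjusted p = 0.00466). The call for ERO1B (0.67, adjusted p = 0.047) was also lost without any 1 of 8 libraries, and that for PDIA5 (0.18, adjusted p = 0.015) without overTST replicate 1 (adjusted p = 0.0599). DERL2 was lost without shTST replicate 4 or overTST replicate 3 (adjusted p of up to 0.0613), and ATF6 without shTST replicate 1 or 4 or overTST replicate 2, 3 or 4 (up to 0.133).

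Members with the ERSE letters were counted beside the rest as a description. With shTST, 4 of 8 members with an ERSE were called higher (HSPA5, HSP90B1, CALR and PDIA6), with a median log2 fold change of 0.15. Of the other 29 members tested with a promoter sequence, 4 were higher and 4 lower, with a median of 0.03, against 6.69% of all genes higher and 9.4% lower. With overTST the ERSE members had 2 higher and 1 lower call and a median of 0.0022, and the others 6 higher and 10 lower and a median of -0.01, against 15.7% of all genes higher and 18.2% lower. PDIA4, with the highest value in shTST, had none of the ERSE, ERSE-II or UPRE letters in this window, and the ERSE-II genes HYOU1, SDF2L1 and HERPUD1 were not called with shTST.

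A further 139 genes in 6 lists of related ER functions were read beside the members, of which 135 were tested. With shTST 23 of them were called (17%), close to the 16.1% of all genes. Of these, 9 were higher, against 6.69% of all genes, and 14 lower, against 9.4%. DDOST, a subunit of the oligosaccharyltransferase, rose by 0.26 (adjusted p = 0.0022), and its partner KRTCAP2 by 0.30 (adjusted p = 0.019), a call lost without WT replicate 1 or 2 or shTST replicate 1 (adjusted p of up to 0.0698). The other ERAD genes gave 7 lower calls of 28, against 9.4% of all genes, led by BAG6, a chaperone of the cytosolic side (-0.25, adjusted p = 0.0012). Among the other regulators tested, 4 of 22 were lower, against 9.4% of all genes, and 1 was higher, against 6.69%. WFS1, an ER calcium and stress regulator, was at 225, 274, 240 and 248 CPM in WT and at 166, 183, 173 and 185 CPM in shTST, a log2 fold change of -0.48 (SE 0.053, adjusted p = 4.9e-06). TRIB3, a pseudokinase induced by the PERK branch, fell by 0.33 (SE 0.046, adjusted p = 6.2e-05). The counts moved with single libraries, from 17 higher and 9 lower without WT replicate 3 to 3 and 6 without shTST replicate 1, with 5 and 6 without WT replicate 4 or shTST replicate 4, and 9, 9 and 8 lower without WT replicate 2, shTST replicate 2 and shTST replicate 3. Of all genes tested, 15.7% were called without WT replicate 3 and 10.2% without shTST replicate 1.

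With overTST 65 of the 135 were called (48.1%), against 33.9% of all genes. Of these, 36 were higher, against 15.7% of all genes, and 29 lower, against 18.2%. The other ER chaperones and prolyl isomerases had 12 higher and 2 lower calls of 24, with the isomerases FKBP2 (0.42) and PPIB (0.35) first by p. The other translocation genes had 10 higher and 4 lower of 23, with SRP14 of the signal recognition particle (0.37) and the signal peptidase subunit SPCS2 (0.34) first. The ERAD list had 2 higher and 9 lower of 28, with MARCHF6, an ER ubiquitin ligase, at -0.38 and UFD1, a p97 cofactor, at 0.30. In the list of other sensors and regulators 4 were higher and 6 lower of 22, and in that of the disulfide enzymes 3 and 3 of 17. MCFD2 and LMAN1, which together carry coagulation factors out of the ER, fell by 0.42 and 0.35. With the length trend removed, 30 were higher, against 12.9% of all genes, and 27 lower, against 15.3%. These included 7 higher and 2 lower in the chaperone list, 9 and 4 in the translocation list and 3 and 7 in the ERAD list. FKBP2, PPIB, SRP14, SPCS2 and MARCHF6 then stood at 0.24, 0.19, 0.22, 0.25 and -0.23.

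DDIT3 (CHOP), the transcription factor downstream of PERK and ATF4 that favours cell death, had the largest change of the genes named from these lists. It was at 3.29, 2.504, 4.18 and 4.20 CPM in WT, at 4.83, 3.75, 4.32 and 4.45 CPM in shTST and at 6.87, 5.59, 7.78 and 7.86 CPM in overTST. The overTST libraries lay above all others, with a log2 fold change of 1.01 (SE 0.15, adjusted p = 1.7e-05) against WT, whereas shTST gave 0.31 (adjusted p = 0.16). MBTPS2, the protease that releases ATF6, fell by 0.58 with overTST (SE 0.069, adjusted p = 1.2e-06) and by 0.30 with shTST (SE 0.062, adjusted p = 0.0021). After length correction DDIT3 stood at 0.82 (adjusted p = 0.00015) and MBTPS2 at -0.46 (adjusted p = 1.9e-05) with overTST.

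The sources used here do not state whether reads were counted by strand, and genes that overlap can share reads. The overlap covered 25.2% of the exonic bases of PDIA6, 23.2% of DNAJB11, 18.9% of PDIA3, 15.1% of EIF2AK3, 13.5% of OS9 and 12.2% of PDIA5, and less than 10% of every other member except TXNDC5. SYVN1 overlaps the strongly expressed genes FAU and MRPL49 over 8.93% of its exonic bases.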

How the data were processed

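The submitters' processing notes name Trimmomatic 0.36, STAR 2.5.2b, Subread 1.5.2 with featureCounts and GRCh38. The authors deposited unnormalized counts, which per the file headers are reads per Ensembl gene beside its exonic length, in 12 libraries (WT, shTST and overTST, 4 replicates each). Whether strand was used is not given in the sources used here. Groups were taken from the sample labels. Of 57500 identifiers, 56410 had a name.

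After filterByExpr and TMM scaling, the quasi-likelihood test of edgeR 4.0.16 was run over all genes, and p-values were adjusted over them (Benjamini-Hochberg), with calls at 0.05 or less. Comparisons with WT used their own 8 libraries, and shTST against overTST used 1 fit of 12. The SE was taken as the size of the log2 fold change over the root of F, and intervals are 95%. CPM per library came from TMM over all 12 libraries. Length correction removed a lowess trend (span 0.3) against log2 exonic length in each library. Alternatives were DESeq2 1.42.0, limma 3.58.1 (voom), other normalizations, filters, libraries and genes, a replicate block, length and GC corrections, and each library left out. Scripts ran in R 4.3.3 and Python 3.11.15 and were tested on simulated data. Libraries held 22911380 to 45120508 counts, which limits the precision of low genes.

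All 40 members were named. Values in every library are given for those called with an absolute log2 fold change of 0.3 or more against WT or first by p in their role, and for TST and ERN1. Of 139 other ER genes in 6 lists, the 2 with the smallest p per list in each comparison with WT were named, apart from a gene that is not reported here. Members, lists and tests were chosen with earlier results of these data known. Motifs were searched on both strands of RefSeq promoters (GRCh38.p14).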

Additional observations from a re-analysis of the deposited data

Results flagged for a closer look

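In 10 of 123 groups of 4 libraries (40 members and TST in 3 groups each), 1 library stood apart from the other 3 by Dixon's test at 95%, which chance gives in about 1 group in 20. In WT, EIF2AK3 was at 14.19 CPM in replicate 2 against 9.937 to 10.49 in the others, and its fall with overTST was called without that library. DNAJC3 was at 55.17 CPM in WT replicate 4 against 62.52 to 63.75, HERPUD1 at 41.83 CPM in WT replicate 1 against 47.51 to 47.96, PDIA5 at 53.45 CPM in WT replicate 1 against 50.26 to 50.7, and P4HB at 2231 CPM in WT replicate 3 against 2095 to 2117. In shTST, HYOU1 was at 288.8 CPM in replicate 2 against 316.0 to 318.9, and TST was at 36.55 CPM in replicate 3 against 32.99 to 33.57, still below every WT library. In overTST, ERO1B was at 0.9081 CPM in replicate 3 against 0.591 to 0.5972, and without that library its fall was called. EDEM2 was at 59.96 CPM in overTST replicate 4 against 53.3 to 54.41. DERL3 was at 0.03732 CPM in overTST replicate 1, which is 1 read, against 0 in the others.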

How the results depend on the processing

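With shTST, leaving out 1 library gave 4 to 10 higher members (9 in the report), 1 to 4 lower members, 3 to 17 higher and 6 to 12 lower genes of the other ER lists. Of all genes tested, 10.2 to 15.7% were called in these fits, against 16.1%. With overTST, length correction left 6 lower members, and 7 with the replicate block, against 11; TST then stood at 0.083 and 0.081 (adjusted p = 0.277 and 0.233). DNAJC10 turned from -0.20 to 0.0087 and 0.0081, and MANF from 0.15 to -0.0011 and -0.00066. The median of shTST against overTST was 0.035 to 0.099 with 1 library left out (0.035 without overTST replicate 1). For the other ER lists with shTST, whose alternatives were added after the data were seen, upper-quartile scaling gave 16 higher and 7 lower genes and length correction with the replicate block 16 higher. Upper-quartile scaling moved the share of higher calls among all genes called with shTST from 41.6 to 52.7%. Filtering none of the genes gave 6 higher and 3 lower members with shTST, where 7.63% of all genes tested were called. The calls of members by DESeq2 and limma-voom numbered 13 and 13 with shTST and 19 and 20 with overTST, against 13 and 20.

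Correlations over genes between same-numbered libraries were small, from -0.053 to 0.080. For WT replicates 1, 2 and 3 the best match in shTST was the library of the same number. With 4 libraries per group, these values cannot decide whether the numbers pair the samples, and the main test used no pairing. With the replicate number as a block, 14, 20 and 20 members were called with shTST, with overTST and between them, against 13, 20 and 19, and 17 genes of the other ER lists were higher with shTST, against 9. Of all genes, 2980, 5166 and 5232 were called with the block, against 2346, 4893 and 4907. Depth limits what can be said of ERO1B, at about 1 CPM, and of DERL3, which was not tested. Counts per gene do not show splicing of XBP1 or cleavage of ATF6.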

Other observations

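The N-glycan list, which holds the oligosaccharyltransferase and the calnexin cycle, had 22 genes tested. With overTST 5 of them were called higher, against 15.7% of all genes, and 6 lower, against 18.2%. KRTCAP2, an oligosaccharyltransferase subunit, was at 10.7, 10.6, 12.6 and 12.6 CPM in WT, at 15.6, 14.9, 14.0 and 12.6 CPM in shTST and at 16.9, 14.7, 15.6 and 15.5 CPM in overTST, and rose by 0.44 on the log2 scale with overTST (SE 0.086, adjusted p = 0.00035, edgeR). Of the other disulfide enzymes, ERP29, an ER protein with a thioredoxin fold, rose by 0.17 (adjusted p = 0.013, and 0.0546 without shTST replicate 1) with shTST and by 0.27 (adjusted p = 0.00091) with overTST, and QSOX2, a sulfhydryl oxidase, fell by 0.21 (adjusted p = 0.0028) with overTST. Among the regulators, WFS1 fell by 0.34 with overTST (SE 0.056, adjusted p = 5.4e-05), at 190, 209, 196 and 184 CPM. TRIB3 stood at 0.10 with overTST (adjusted p = 0.20), and the difference of shTST from overTST was -0.43 (SE 0.058, adjusted p = 6.2e-06), with no overlap between the libraries of these groups. FKBP9, a prolyl isomerase, rose by 0.22 (adjusted p = 0.0068) with shTST and stood at -0.10 (adjusted p = 0.20) with overTST, and the difference between both was 0.32 (SE 0.056, adjusted p = 0.00011).

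For the 9 members called higher with overTST, replicate 1 was in every case the overTST library nearest to WT, as it was for 7 of the 11 called lower. The coefficient of variation over 4 WT libraries had a median of 5.56% over 39 members, from 0.741% for SELENOS to 18.0% for ERO1B.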
